A study of Mus musculus with 121 samples.

Results

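The libraries described here are those of the substantia nigra (SN) of adult male mice whose striatum had received AAV-Cre, comparing 8 HOM with 7 WT mice. They were chosen by the region, model and genotype in their labels and are 15 of the 121 libraries of the series. The study asked how a rise in endogenous GDNF, made in adulthood by a conditional hypermorphic Gdnf allele, changes gene expression along the dopamine pathway. WT mice carried wild-type alleles only (wt/wt), HET mice carried 1 hypermorphic allele (wt/cHyper) and HOM mice carried it on both chromosomes (cHyper/cHyper). All 3 genotypes, WT included, were on a mixed 129Ola, ICR and C57bl6 background. All received AAV-Cre in the striatum of both hemispheres at 3 to 5 months and were 5 to 7 months old at dissection. In this allele Cre turns a cassette that replaces the native 3′ end of the Gdnf transcript. The virus was placed in the striatum and the SN itself was not injected, so the SN was the place where the axons of the treated striatum originate or end. The 7 HET libraries shared the fit and give the intermediate genotype.

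In the striatum, interneurons release GDNF, a trophic protein for dopamine neurons. It binds the co-receptor GFRα1 and signals through the receptor tyrosine kinase RET, both of which midbrain dopamine neurons carry, and it can be transported from striatal terminals back to the cell bodies in the SN. These neurons make dopamine through tyrosine hydroxylase (Th) and aromatic amino acid decarboxylase (Ddc), load it into vesicles by Slc18a2 and take it up again by Slc6a3.

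Library totals ran from 16280873 to 20474159 counts in WT mice (median 18992098) and from 11763261, in mouse HOM-3690, to 21363545 in HOM mice (median 19643786). Levels are given as cpm, counts scaled to library size by TMM. The dissected tissue carried its defining genes in every library. Slc6a3, the dopamine transporter, ran from 798 to 1780 cpm in WT and from 985 to 1480 cpm in HOM mice, and En1, a transcription factor of the midbrain, from 28.2 to 57.2 and from 33.4 to 53.7 cpm.

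The WT library of mouse WT-3587 stood apart. It held 39 cpm of Adora2a and 27.8 cpm of Drd1, both abundant in striatal projection neurons, against 0.905 to 8.98 and 2.01 to 5.99 cpm in the other 6 WT libraries. It also had the lowest Th of all 22 libraries, at 387 cpm. The summed level of 25 striatal projection neuron genes was 2116 cpm in it and 799.6 to 953.9 cpm in the other WT libraries, with a range of 774.4 to 926.8 cpm in HOM mice. The HOM against WT fit, the lists and the interactions were therefore also computed without it.

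Gdnf itself was near the detection floor in the SN. WT libraries held 2 to 22 counts, or 0.101, 0.232 and 1.07 cpm as the lowest, median and highest, and HOM libraries held 3 to 19 counts, or 0.179, 0.474 and 0.883 cpm. The highest WT value was that of mouse WT-3587, and the other 6 WT libraries lay between 0.101 and 0.339 cpm, a range that 6 of the 8 HOM libraries exceeded. With that library 0 HOM values lay above all WT values. Only 1 of 22 libraries reached 1 cpm, so Gdnf entered no main test. When no filter was applied its log2 fold change was 0.58 ± 0.43 (SE), with a 95% interval from -0.30 to 1.46 and an adjusted p of 0.771. Without mouse WT-3587, a fit added after values were seen, it was 1.24 ± 0.38, with an interval from 0.46 to 2.03, an unadjusted p of 0.00331 and an adjusted p of 0.785. In the injected striatum of the same series Gdnf averaged 6.62 cpm in WT and 8.71 cpm in HOM mice, all 7 HOM libraries lying above the WT mean, with a log2 fold change of 0.40, an unadjusted p of 3.4e-04 and an adjusted p of 0.504.

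Of the 14813 genes that reached 1 cpm in 3 or more libraries, edgeR's quasi-likelihood test called 0 (0%) between HOM and WT at an adjusted p under 0.1. The lowest adjusted p was 0.281 for Car8. At an unadjusted p under 0.05 there were 1109 genes (7.49%), of which 438 (2.96%) were higher and 671 (4.53%) lower in HOM mice. Without mouse WT-3587 the call count was again 0, of 14793 genes, with 952 at an unadjusted p under 0.05, 446 higher and 506 lower. Other tools gave other counts: DESeq2 called 10 genes and edgeR's likelihood ratio test 218 (1.47%), of which 102 were higher. The likelihood ratio test uses the trended dispersion alone, and its calls were led by Pmch, Ttr and Acta2, genes whose levels varied many-fold between libraries of 1 genotype. Between HET and WT mice 0 genes were called, with 694 at an unadjusted p under 0.05. Fold changes were small. The median absolute log2 fold change was 0.06, and for 14158 genes (95.6%) the 95% interval lay within 1 log2 unit of no change. Of all genes tested, 12 (0.081%) had HOM and WT libraries that did not overlap, 3 higher and 9 lower in HOM mice.

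The dopamine genes did not pass the test, and their intervals bound the size of any difference. Th ran from 387 to 875 cpm in WT mice (median 584) and from 441 to 762 cpm in HOM mice (median 623). The HOM values fell inside the WT range with all libraries. Mouse WT-3587 set its lower end, and without it WT mice ran from 481 cpm, above the lowest HOM value. The log2 fold change of Th was -0.01 ± 0.16 (SE), with a 95% interval from -0.35 to 0.32, and -0.10 without mouse WT-3587. For Slc6a3 it was -0.07 ± 0.15, for Slc18a2 -0.08 ± 0.13 and for Ddc -0.004 ± 0.15, with adjusted p from 0.903 to 0.998. Without mouse WT-3587 these 3 values were -0.16, -0.15 and -0.08. Of 14 tested genes of dopamine synthesis, transport and breakdown, 0 were called, and 2, Spr among them, had an unadjusted p under 0.05, both higher. Spr makes the cofactor that Th needs and averaged 28.5 ± 3.22 (SD) cpm in WT and 32.1 cpm in HOM mice. The list's median log2 fold change was -0.007, against 0.006 over all genes tested, and -0.06 without mouse WT-3587, when 1 gene was higher. Its summed level ran from 3091 to 5708 cpm in WT and from 3361 to 5126 cpm in HOM mice. Without mouse WT-3587 the lowest WT sum was 3766 cpm. In bulk tissue a difference in the number of dopamine neurons cannot be told apart from one in RNA per neuron.

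Regulators of dopamine neuron identity lay equally close. Nr4a2, a nuclear receptor required in these neurons, ran from 48.3 to 83.5 cpm in WT and 46.7 to 76.3 cpm in HOM mice, with a log2 fold change of -0.07 ± 0.13 (SE), or -0.12 without mouse WT-3587. Pitx3 averaged 7.55 and 8.73 cpm. Of 20 genes in this list 0 were called and 0 had an unadjusted p under 0.05, and without mouse WT-3587 there was 1, Sox6, with a log2 fold change of -0.17. The D2 autoreceptor gene Drd2 averaged 76.8 ± 13.5 (SD) cpm in WT and 74.0 ± 9.92 cpm in HOM mice.

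The receptors through which GDNF acts were high in every library. Ret ran from 400 to 805 cpm in WT mice (median 510) and from 504 to 730 cpm in HOM mice (median 619), and Gfra1 from 84 to 144 and from 109 to 162 cpm. Both groups overlapped for each gene. The log2 fold change was 0.07 ± 0.13 (SE) for Ret and 0.12 ± 0.10 for Gfra1, and without mouse WT-3587, which had the lowest value of both, it was -0.003 and 0.06. Of the 8 tested ligands and receptors of the family 1 had an unadjusted p under 0.05. This was Artn, the ligand artemin, at 0.568 cpm in WT and 0.876 cpm in HOM mice, a level near the detection floor.

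**Figure D1:**
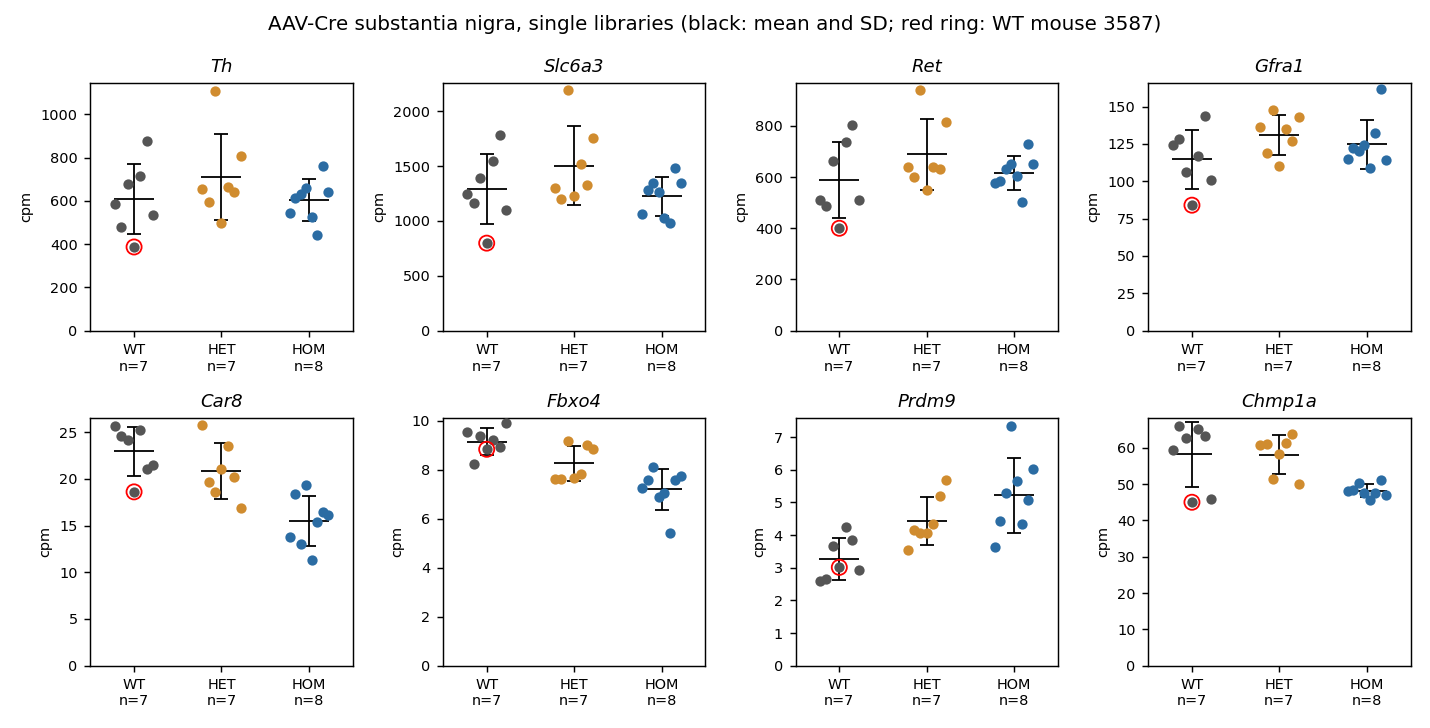
Level in cpm of 8 genes in single SN libraries of AAV-Cre mice, WT, HET and HOM, with the mean and SD in black and mouse WT-3587 ringed. Th, Slc6a3, Ret and Gfra1 overlapped between WT and HOM mice, while all 8 HOM values of Fbxo4 lay below all 7 WT values.

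The gene with the lowest p was Car8, which encodes a carbonic anhydrase-related protein without enzymatic activity that binds the IP3 receptor. WT mice held 18.6, 24.1 and 25.7 cpm as lowest, median and highest, and HOM mice 11.3, 15.7 and 19.3 cpm. The WT library at 18.6 cpm was that of mouse WT-3587 and was the only WT value under the highest HOM value. HET mice averaged 20.8 cpm. The log2 fold change was -0.57 ± 0.11 (SE), with an adjusted p of 0.281. Over 24 alternatives the adjusted p ranged from 3.7e-04 to 0.652. In the likelihood ratio test without mouse WT-3587 it was 1.2e-04. In the quasi-likelihood test without that mouse the log2 fold change was -0.62 with an adjusted p of 0.138. Leaving out mouse HOM-3607, which had the highest HOM value, it was -0.63 with an adjusted p of 0.0437. In that fit 3 genes were called, the others being Atp2a3, a calcium pump of the endoplasmic reticulum, and Lrrtm2, a synaptic adhesion protein. With all libraries Atp2a3 came directly after Car8, with a log2 fold change of 0.59 and an unadjusted p of 8.05e-05. DESeq2, the likelihood ratio test and the fit of all 3 regions called both genes, with adjusted p of 0.00273, 3.7e-04 and 0.0894 for Car8 and 0.0191, 7.4e-06 and 0.0603 for Atp2a3. Atp2a3 ran from 17.2 to 25.6 cpm in WT and from 21.1, in mouse HOM-3607, to 43.3 cpm in HOM mice.

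Other genes with all 8 HOM libraries on the lower side of the WT mean were likewise not called by the quasi-likelihood test. Fbxo4, a substrate adaptor of a ubiquitin ligase, held 8.23, 9.21 and 9.9 cpm in WT and 5.4, 7.42 and 8.1 cpm in HOM mice, so that all HOM values lay below all WT values, with a log2 fold change of -0.35 ± 0.08 (SE). The zinc finger genes Zfp455 and Zfp93 had log2 fold changes of -0.57 and -0.26. Those of Bbs7, a part of the ciliary BBSome, and Plpp6, a lipid phosphatase, were -0.30 and -0.17. All 8 HOM libraries lay below the WT mean for these 4 genes, but their ranges overlapped with WT. DESeq2 called Fbxo4 and Bbs7, with adjusted p of 0.0783 and 0.0971. Without mouse WT-3587 it called neither, and their log2 fold changes in the quasi-likelihood fit were then -0.35 and -0.29. The fit of all 3 regions, which share mice, called Fbxo4, Bbs7 and Zfp455, with 0.0561, 0.0561 and 0.0977.

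On the higher side, Prdm9, a histone methyltransferase known from meiosis, held 2.58, 3.01 and 4.24 cpm in WT and 3.63, 5.17 and 7.35 cpm in HOM mice, with HET mice at 4.44 cpm on average. Its log2 fold change was 0.67 ± 0.15 (SE). Blvrb, a biliverdin reductase, ran from 7.12 to 9.15 cpm in WT and from 9.2 to 12.1 cpm in HOM mice without overlap, and its log2 fold change was 0.44. Cthrc1, a secreted matrix protein, averaged 4.97 ± 2.58 (SD) and 10.9 ± 3.21 cpm. The log2 fold changes of Stk10, Lmna and the mitochondrial RNA polymerase Polrmt were 0.49, 0.17 and 0.17. The adjusted p of these 6 genes lay between 0.538 and 0.563 in the quasi-likelihood test. DESeq2 called Prdm9 and Cthrc1, with 0.0542 and 0.0971, the fit of all 3 regions Prdm9, with 0.0603, and the likelihood ratio test Cthrc1 and Stk10, with 5.5e-08 and 0.0509. Without mouse WT-3587 DESeq2 called neither Prdm9 nor Cthrc1, and the likelihood ratio test called Cthrc1 but not Stk10. The log2 fold changes of Prdm9, Cthrc1 and Stk10 in the quasi-likelihood fit were then 0.65, 1.12 and 0.46.

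Leaving out mouse WT-3587 brought 6 other genes to the lowest p, none called by the quasi-likelihood test. Chmp1a, an ESCRT component, ran from 45.7 to 51.1 cpm in HOM mice and from 45.9 to 66 cpm in the other 6 WT mice, with a log2 fold change of -0.32. In mouse WT-3587 it was 45 cpm. Zdhhc2, a palmitoyltransferase, had a log2 fold change of -0.29, and Lsm14b, Golga7b and 4833420G17Rik 0.14, 0.36 and 1.09. The predicted gene Gm8615 was between 9.78 and 11.4 cpm in mice WT-3576, WT-3578 and WT-3677, at most 0.318 cpm in the other 4 WT mice and at most 0.674 cpm in HOM mice. Without mouse WT-3587 DESeq2 called Chmp1a, Gm8615 and Zdhhc2, with adjusted p of 0.0289, 0.0289 and 0.0545, and the likelihood ratio test called these 3 as well as Golga7b and 4833420G17Rik. With all libraries DESeq2 already called Gm8615, with an adjusted p of 0.0542. The likelihood ratio test then called Gm8615, 4833420G17Rik and Chmp1a, with 2.4e-40, 2.4e-11 and 0.0786.

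Of the striatal genes, too, the quasi-likelihood test called 0, and their fold changes rested largely on mouse WT-3587. Adora2a, an adenosine receptor gene, held 0.905, 1.66 and 39 cpm in WT and 1.14, 1.85 and 3.03 cpm in HOM mice, and its log2 fold change moved from -2.08 to -0.54 when that library was left out. For Drd1, the D1 receptor gene, it moved from -1.28 to -0.32. Of 22 tested striatal projection neuron genes 10 had an unadjusted p under 0.05, all lower in HOM mice, and without that library 0 did. The list's median moved from -0.48 to -0.10. Mouse WT-3649 was the next highest WT library, with 8.98 cpm of Adora2a. Of 14 tested receptors and effectors of dopamine and adenosine, 5 were lower and 0 higher at an unadjusted p under 0.05 with mouse WT-3587, and 0 were lower and 1 higher without it.

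Genes of other tissue next to the SN varied from library to library within each genotype. Pmch, a peptide of the lateral hypothalamus, held 1.46, 1.96 and 15.1 cpm in WT and 1.47, 6.99 and 155 cpm in HOM mice, the highest being mouse HOM-3687, in which Hcrt, another peptide of that area, was at 3.75 cpm against at most 0.255 cpm elsewhere. Mice HOM-3606 and HOM-3749 had 35.2 and 30.1 cpm of Pmch. The summed level of 15 hypothalamic genes ran from 44.85 to 177.4 cpm in WT and from 36.51 to 267.2 cpm in HOM mice, Pmch being the most abundant in mouse HOM-3687. Of 11 tested, Pmch and Otp were higher at an unadjusted p under 0.05, and the median log2 fold change was -0.01, or 0.18 without mouse WT-3587. The part of this tissue in the other results was not tested.

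Excitatory and hindbrain genes varied in the same manner. Slc17a7, a vesicular glutamate transporter, was at 307, 209 and 154 cpm in mice HOM-3611, HOM-3570 and HOM-3567, at 226 cpm in mouse WT-3587 and at 3.75 cpm in mouse HOM-3687. Fat2, a cadherin of precerebellar neurons, was highest in the same 4 libraries among WT and HOM mice, at 33.2, 20.2, 28.4 and 33.3 cpm. The summed level of 8 hindbrain genes, a list chosen after values were seen, ran from 7.793 to 74.94 cpm in WT and 9.293 to 86.19 cpm in HOM mice, and 7 of the 8 genes were at 0 in mouse HOM-3687. All 8 had a positive fold change, 0 at an unadjusted p under 0.05. Without mouse WT-3587 the median moved from 0.68 to 2.01 and 2 genes were higher at that p. Tph2, which makes serotonin in the raphe, ran from 3.38 to 55.3 and from 0.779 to 63.1 cpm. All 6 serotonin neuron genes had a positive fold change, with a median of 0.50 and 0 at an unadjusted p under 0.05, or 1 without mouse WT-3587.

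Smooth muscle genes, also listed after values were seen, were above 200 cpm in sum in mice HOM-3606, HOM-3567, HOM-3611 and HOM-3607, with 423.3 cpm as the highest, and ran from 35.87 to 173.1 cpm in WT mice. Acta2, their most abundant gene in those 4 libraries, was at 156, 140, 106 and 80.9 cpm. Mouse HOM-3570 had 6.16 cpm, the lowest of all. All 8 genes of this list had a positive fold change with a median of 1.25, and 2 of them, Actg2 and Des, were higher at an unadjusted p under 0.05. Without mouse WT-3587 the median was 1.49 and 7 were. The fibroblast and meninges list varied too, from 83.71 to 650.5 cpm in WT and from 87 to 700.7 cpm in HOM mice, with Igf2 the most abundant. All 12 of its genes had a positive fold change, with a median of 0.30 and 0 at an unadjusted p under 0.05. The part of vessels and meninges in the other results was not tested.

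**Figure D2:**
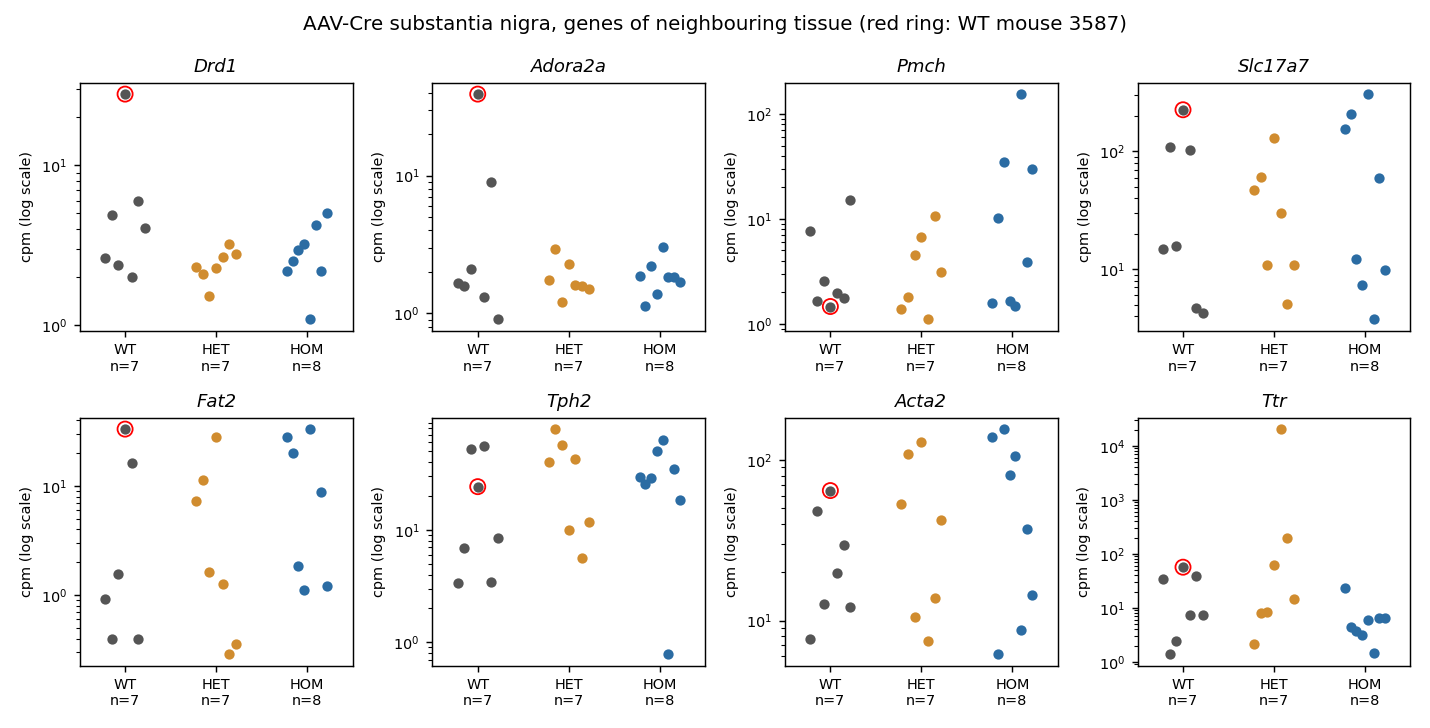
Level in cpm, on a log axis, of 8 genes of tissue next to the SN in single libraries of AAV-Cre mice, with mouse WT-3587 ringed. Drd1 and Adora2a set mouse WT-3587 apart, the other genes varied many-fold within each genotype, and mouse WT-3677 and mouse HOM-3687, both at 0 for Fat2, are not drawn there.

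In the glial lists the quasi-likelihood test called 0 genes, and the likelihood ratio test called Vim and Cd44 of the reactive astrocyte list and Fcrls of the microglial list. Beside 4.53% of all genes that were lower at an unadjusted p under 0.05, 3 of 12 astrocyte genes were, with and without mouse WT-3587, and these were the glutamate transporters Slc1a2 and Slc1a3 and the gap junction gene Gja1. Slc1a3 starts 0.824 Mb from Gdnf and is also among the genes counted below as near it. Slc1a2 ran from 1730 to 2240 cpm in WT and from 1590 to 1880 cpm in HOM mice, with a log2 fold change of -0.12 ± 0.05 (SE). The astrocyte list's median was -0.04, and 5 of its 12 genes had a positive fold change, at most 0.16. Gfap averaged 787 ± 203 (SD) cpm in WT and 785 ± 245 cpm in HOM mice, and of 10 reactive astrocyte genes 1, S1pr3, was higher. Of 16 microglial genes 1, P2ry12, was lower, and 3 of 16 had a positive fold change. Among 12 genes of oligodendrocyte precursors Pdgfra and Itpr2 were lower, also without mouse WT-3587, and of 20 myelin genes 0 were past that p, with a median of 0.05, or 0.002 without mouse WT-3587. Mbp averaged 8854 cpm in WT and 9722 cpm in HOM mice.

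In the other lists, too, the quasi-likelihood test called 0 genes. Counts at an unadjusted p under 0.05 stand beside 7.49% of all genes. With all libraries the median log2 fold change over all genes tested was 0.006. Of 27 genes of cholesterol and fatty acid synthesis 4 were higher and 2 lower at that p, 20 had a positive fold change and the median was 0.06. Without mouse WT-3587, 4 were higher and 1 lower. Mvk, the mevalonate kinase gene, averaged 25.5 cpm in WT and 28.3 cpm in HOM mice, and Hmgcs1, at the start of the pathway, 333.5 cpm in WT and 303 cpm in HOM mice. Of 80 nuclear genes of the respiratory complexes 62 had a positive fold change, with a median of 0.02, and 2 were past that p. Of 77 ribosomal protein genes 3 were, and 2 without mouse WT-3587. Of 25 antioxidant genes Sod2 and Txnrd2 were higher, Sod2 averaging 164 and 179 cpm, and without mouse WT-3587 only Txnrd2 was. Sod2 starts at 13007839 on chromosome 17, in a stretch described below. Of 17 immediate-early genes 1 had a positive fold change, and Egr3 and Nr4a1 were lower at an unadjusted p under 0.05. Without mouse WT-3587 the median moved from -0.21 to -0.10 and 1 gene, Nr4a1, was lower at that p.

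At an unadjusted p under 0.05 there were also Stat2 of 21 interferon genes, Vwf of 12 endothelial genes, Hspb1 of 10 heat shock genes and Ngfr of 10 neurotrophin genes, all higher, and Clock and Npas2 of 17 clock genes, Chrna3 of 12 cholinergic genes and Lmo3 of 13 cortical genes, all lower. Of thalamic genes Lef1 was higher and Rora lower. Without mouse WT-3587 neither Stat2 nor Vwf nor Ngfr nor Clock was past that p, and the neurotrophin list held 1 higher, the thalamic list 2 higher and 1 lower and the cortical list 1 higher and 1 lower. The lists of GABA neurons (12 genes tested), choroid plexus (10), glucocorticoid response (14), MHC (15), unfolded protein response (15), Parkinson disease (17), lymphocytes (2) and blood (2) held 0 such genes, and without mouse WT-3587 the GABA list held 1 lower and the MHC list 1 higher.

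Genes near Gdnf on chromosome 15 were more often past an unadjusted p of 0.05 than all genes. Of 49 tested genes that start within 10 Mb of it in mm10, 13 (26.5%) were, 7 higher and 6 lower, beside 7.49% of all genes. Fbxo4 starts at 3963564, 3.85 Mb from Gdnf, and 6030458C11Rik at 12808177, with log2 fold changes of -0.35 and 0.17. In the striatum of these mice the share near Gdnf was 14% beside 4.58% of all genes. In their prefrontal cortex (PFC) it was 34% beside 14.2%, and in the SN of Nestin-Cre mice 2.04% beside 4.09%. Nestin-Cre mice are other animals, younger than the AAV-Cre mice, and their Cre acts in the central nervous system from mid-gestation. For 6030458C11Rik the log2 fold change was 0.21 in the striatum, 0.26 in the PFC and -0.05 in the SN of Nestin-Cre mice. For Brix1 it was -0.18 in the SN, -0.03 in the striatum and 0.02 in the PFC, and the interactions of this gene had adjusted p of 1.00 and 0.343. For Lmbrd2 it was -0.25, -0.09 and 0.28. Without mouse WT-3587, 6 genes near Gdnf were higher and 4 lower in the SN. Regions of 1 mouse are not independent. What differs in this stretch between the chromosomes of WT and HOM mice was not tested.

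On chromosome 17 as a whole 55 of 734 tested genes (7.49%) had an unadjusted p under 0.05, the share of all genes. In a stretch of it from 5 to 25 Mb there were 27 of 162 (16.7%), but the stretch was chosen for these values and its share is no test. Prdm9 lies there at 15543079, and so does Tbp, the TATA-binding protein gene, at 15499888. Tbp ran from 19.9 to 22.6 cpm in WT and from 17.2 to 19.4 cpm in HOM mice without overlap. Its log2 fold change was -0.19 in the SN, -0.17 in the striatum and -0.30 in the PFC of these mice, and -0.10 in the SN of Nestin-Cre mice. Sod2 starts in the stretch too, at 13007839. The log2 fold change of Sod2 was 0.12 in the SN, 0.19 in the striatum and 0.44 in the PFC. The quasi-likelihood test called it in the PFC, with an adjusted p of 0.0564. In the SN of Nestin-Cre mice it was -0.008.

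Whether the HOM difference in the SN departs from that elsewhere was tested as an interaction. Against the striatum 0 of 15252 genes were called (0%), with 544 at an unadjusted p under 0.05. Against the PFC 0 of 15199 were called (0%), with 1936 at an unadjusted p under 0.05 and a lowest adjusted p of 0.124 for Atp2a3. For this gene the log2 fold change was 0.59 in the SN and -0.29 in the PFC. Against the SN of Nestin-Cre mice 0 of 15108 were called (0%), with 501 at an unadjusted p under 0.05. Without mouse WT-3587 these comparisons again called 0 genes each, with 461, 1697 and 395 at an unadjusted p under 0.05. With all libraries the likelihood ratio test called 131, 287 and 162 genes in them. Car8 averaged 26.6 cpm in WT and 22.5 cpm in HOM mice in the SN of Nestin-Cre mice, with a log2 fold change of -0.24 and 0 HOM libraries above the WT mean, and the difference between the models had an adjusted p of 0.986. In the AAV-Cre mice its log2 fold change was -0.25 in the striatum and -0.41 in the PFC. For Prdm9 these 2 values were 0.61 and 0.49, and for Chmp1a -0.26 and -0.27.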

How the data were processed

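RNA of 121 libraries was sequenced from stranded poly(A) libraries. By their methods and processing notes the authors used bcl2fastq 2.20.0.422, STAR 2.5.2b against mm10 and featureCounts 1.5.1, and deposited whole-number counts per gene for 24412 genes, with 0 value columns left unused here. Groups came from the labels. The 22 SN libraries of AAV-Cre mice were fitted in R 4.3.3 with edgeR 4.0.16: at least 1 cpm in at least 3 libraries, TMM, trended dispersion, glmQLFit and glmQLFTest, two-sided, Benjamini-Hochberg over all genes of the fit. SE was derived from the F statistic. DESeq2 1.42.0 was an alternative. Scripts were tested on simulated counts. No replicate pair agreed within sampling noise (chi-square per gene at least 5.26).

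Named genes are Gdnf, 5 genes of the study's text and, with and without mouse WT-3587, the 6 lowest p in each direction with at least 1 cpm and every HOM library on 1 side of the WT mean. Other genes were named as list members or after their values were seen, Atp2a3, Lrrtm2, Tbp, Pmch, Acta2, Ttr and Fat2 among the latter. Members and lists were chosen with earlier results of these data known. Reads of predicted genes may be shared with near-identical copies.

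Regions share mice by label. After removing group means, SN and striatal libraries of 1 mouse correlated with a median r of 0.236 over 21 mice (-0.103 to 0.484) and SN and PFC with 0.215 over 22 (0.104 to 0.461), against -0.009 and -0.018 between different mice. Of the Nestin-Cre mice, 1 is labelled HOM in the SN and WT in the PFC, and its labels were kept.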

Additional observations from a re-analysis of the deposited data

Results flagged for a closer look

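Among 48 groups of 7 or 8 libraries examined, 7 values stood apart from the rest of their group by more than Dixon's limit, which chance alone passes in about 1 of 20 groups. Of these, 3 belong to mouse WT-3587, whose library held 39 cpm of Adora2a, 27.8 cpm of Drd1 and 1.07 cpm of Gdnf. Mouse HOM-3687, the mouse with the highest Pmch, was the lowest HOM library for Blvrb, at 9.2 cpm, and for Fbxo4, at 5.4 cpm. Mouse HOM-3611, the mouse with the highest Slc17a7, had the highest Golga7b of its group, at 113 cpm. Gm8615 was at 0.674 cpm in mouse HOM-3690 and at most 0.239 cpm in the other HOM libraries.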

How the results depend on the processing

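The count of 0 genes was also obtained with DESeq2's size factors, upper quartile scaling, only WT and HOM libraries, robust fitting and an adjusted p under 0.05. DESeq2 called 10 genes, the likelihood ratio test 218, the fit of all 3 regions 13, and no filter and filterByExpr 1 each, Gm2093. Leaving out 1 library at a time gave 0 to 3 genes, the 3 without mouse HOM-3607. Chosen after seeing the data, fits without mouse WT-3587 called 240 genes by the likelihood ratio test, 5 by DESeq2 and 0 by robust fitting. The likelihood ratio test called 131, 287 and 162 genes in the interactions with striatum, PFC and Nestin-Cre SN. With mouse as a replicate block the interactions with striatum and PFC called 0 and 0 genes.

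Of the single values of named genes under these settings, 522 kept their direction and side of the threshold, 20 passed it and 9 changed sign. Th changed sign under upper quartile scaling, to 2.148e-04, and ran from -0.09544 to 0.09882 when 1 library was left out. Nr4a2 ran from -0.1237 to 0.01383 and Drd2 from -0.0945 to 0.01584. The causes were not tested. Depth limits Gdnf, at 2 to 22 counts per library.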

Other observations

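Some genes followed the mouse rather than the region. Over the 14 WT and HOM mice with libraries of all 3 regions, 15 genes had an SD above 1 in log2 cpm (0.5 added) in the SN and a correlation above 0.9 with both other regions, a description of genes chosen after values were seen. Atp6v0c, a subunit of the vacuolar proton pump, was at 54.5 cpm in the SN of mouse WT-3576, between 22.1 and 27.5 cpm in mice WT-3585 and WT-3677 and mouse HOM-3606, and under 1 cpm in the other WT and HOM mice. In the striatum of mouse WT-3576 it was at 36.2 cpm and in the PFC at 29.7 cpm. Gm8615 was at 9.32, 9.06 and 8.78 cpm in the striatum of mice WT-3576, WT-3578 and WT-3677, the same mice in which it was present in the SN.

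Ttr, the main transcript of choroid plexus, was at 20600 cpm in the SN library of mouse HET-3676, against at most 56.7 cpm in WT and 23.5 cpm in HOM mice.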
